A study of Mus musculus with 8 samples.

Results

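The genes described here encode the proteins of the cytosolic ribosome, measured by RNA sequencing of the mouse dorsal hippocampus. They were the genes whose symbols begin with Rpl or Rps followed by a number (with at most one of the letters a, l, x or y after it), or are Rplp0, Rplp1 or Rplp2, and whose mean normalized read count over the 8 libraries was at least 10. Of 24498 genes in the deposited table, 81 had such a symbol and 73 reached the mean, 30 with symbols of the small (40S) subunit and 43 with symbols of the large (60S) subunit. Among the 81, Rps4l and Rpl32l are annotated as processed pseudogenes and not as protein-coding genes. Rps4l, annotated as transcribed, reached the mean and is counted with the small subunit, and Rpl32l did not reach it. No difference between groups entered the choice.

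All mice were male C57BL/6J, 10 to 12 weeks old, and all received an adeno-associated virus (AAV2/9) in the dorsal hippocampus under isoflurane, with meloxicam at 5 mg/kg as analgesia. The knockdown vector carried a short hairpin RNA against Acss2, the nuclear and cytosolic acetyl-CoA synthetase, under a U6 promoter and EGFP under a CMV promoter. The control vector carried EGFP alone under a CMV promoter. After 3 weeks, the trained mice, which had been handled for 3 min a day on 3 days, were exposed to 3 objects in 3 trials of 6 min, 3 min apart, and killed 30 min after training, whereas the untrained mice were home cage controls. The 4 groups were trained knockdown (KD.249, KD.251), untrained knockdown (KD.253, KD.255), trained control (eGFP.250, eGFP.266) and untrained control (eGFP.254, eGFP.268), with 2 libraries each. Whether each library is 1 mouse or a pool is not stated, so the p-values below measure only the spread between these libraries. The tissue was dissected whole, neither promoter is specific to neurons, and in such bulk RNA fewer cells of a type and less RNA per cell cannot be told apart.

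Each ribosome holds about one copy of nearly every ribosomal protein, and cells make the proteins in matched amounts, with unassembled copies degraded. In mammals most of the messenger RNAs begin with a C in a run of pyrimidines, the terminal oligopyrimidine (TOP) motif, through which the mTOR pathway controls their translation. Most of the genes also have many processed pseudogenes in the mouse genome. In neurons, ribosomes lie in the soma and in dendrites, and protein synthesis is needed for the storage of long-term memory.

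The start sites are shown because the pyrimidine run is the sequence these genes are known to share, and because the genes below include some that differed widely between libraries. RefSeq promoters (GRCm38.p6) were matched for 53 of the 73 genes, with 63 start sites. Each line gives 20 bases before and 20 bases from the start of the gene on its own strand, and the capitals mark the longest run of a C followed by at least 4 letters that are C or T and starting within 10 bases of the start. The first 4 genes had a run and were lower in KD.251, eGFP.250 and eGFP.268 than in the other library of the same group, the next 4 had a run and were higher there, and the last 3 had no run at that place.
Rps24 (chr14:24490658-24490697, plus strand): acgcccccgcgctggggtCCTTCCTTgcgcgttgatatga
Rpl12 (chr2:32961692-32961731, plus strand): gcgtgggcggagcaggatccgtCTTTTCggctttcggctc
Rpl13a (chr7:45128726-45128765, minus strand): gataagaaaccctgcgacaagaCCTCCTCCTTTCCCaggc
Rplp2 (chr7:141447631-141447670, plus strand): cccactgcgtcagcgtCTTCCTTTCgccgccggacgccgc
Rps21 (chr2:180257359-180257398, plus strand): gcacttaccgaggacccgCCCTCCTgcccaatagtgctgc
Rpl15 (chr14:18270967-18271006, minus strand): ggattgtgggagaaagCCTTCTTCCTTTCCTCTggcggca
Rpl39 (chrX:37085203-37085242, minus strand): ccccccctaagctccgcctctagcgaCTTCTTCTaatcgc
Rps18 (chr17:33955646-33955685, minus strand): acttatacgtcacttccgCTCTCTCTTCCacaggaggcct
Rpl27 (chr11:101442225-101442264, plus strand): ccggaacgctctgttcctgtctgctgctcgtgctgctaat
Rps13 (chr7:116334171-116334210, minus strand): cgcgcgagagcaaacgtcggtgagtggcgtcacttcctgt
Rpl4 (chr9:64173367-64173406, plus strand): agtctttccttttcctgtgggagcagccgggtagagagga
The run, read on the gene's strand only, stood at 50.8% of the 63 start sites of ribosomal protein genes, against 29.0% of all 32851 start sites in the same table. The letters CCGGAAG, the core bound by transcription factors of the ETS family, were found on either strand in 34.9% of the ribosomal promoters (250 bases before to 50 after the start) and in 8.86% of all of them. A match describes these letters only, and the annotated start need not be the one used in hippocampus.

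Ribosomal protein messenger RNAs differed widely in level. Per kb of transcript, the mean normalized read count ranged from 33.2 for Rps27l to 3935 for Rplp1, a 119-fold range, with a median of 469. Rplp1, an acidic protein of the stalk that recruits the translation factors, was followed by Rpl4 at 2866, Rpl13a at 1843, Rpl37 at 1655 and Rpl21 at 1593 per kb. The lowest 5 were Rps27l, a paralog of Rps27 known as a p53 target, Rps4l at 53.6, Rps2 at 70.9, Rps16 at 72.5 and Rps19 at 83.0 per kb. The median per kb was 399 for the 30 genes of the small subunit and 583 for the 43 genes of the large subunit. The annotation used for the length has only 1 coding transcript of Rps20, of 3706 bases, and the 85.5 per kb of Rps20 rests on it.

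The read length and the share of pseudogene reads were not measured here, but the sequence that these genes share with others was. Cut into windows of 50 bases, the median ribosomal protein transcript had 55.4% of its windows also present in another annotated gene, from 0% to 92.4% (Rps10), and 42 of the 73 had more than 50%. Reads that fall wholly in such windows do not point to 1 gene. The levels of genes with a high share are therefore uncertain, and the highest shares were those of Rps10, Rpl10 (92.1%), Rps12 (90.1%), Rpl10a (88.1%), Rps18 (86.7%) and Rpl9 (86.7%). Across the 73 genes the share of windows and the log2 level per kb had a Pearson correlation of 0.17, a description over genes that share libraries.

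**Figure D1:**
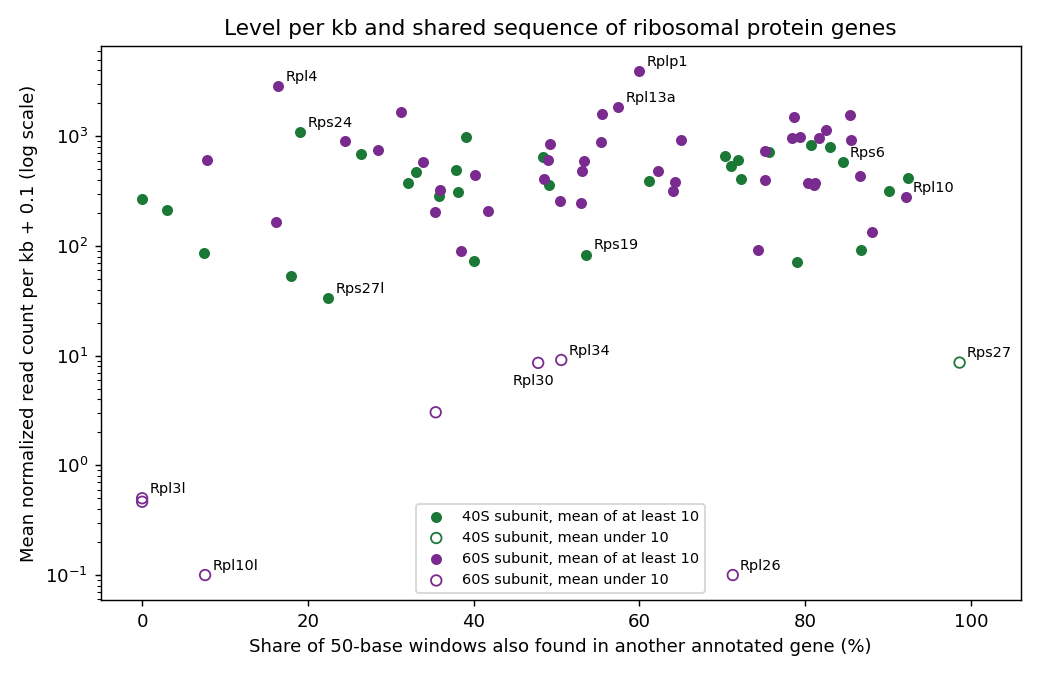
Mean normalized read count per kb of transcript over the 8 libraries (vertical log axis, 0.1 added so that zeros show) against the share of 50-base windows also found in another annotated gene (horizontal axis, %). Each point is 1 of the 81 genes with a matching symbol, and open points are the 8 with a mean under 10. Of the 73 filled points, the lowest is Rps27l (33.2 per kb, share 22.4%) and the highest Rplp1 (3935 per kb, share 60%).

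The 8 genes with a mean under 10 were Rpl10l, Rpl26, Rpl39l, Rpl3l, Rpl32l, Rps27, Rpl34 and Rpl30. Rpl3l, a paralog of Rpl3 known from striated muscle, Rpl39l and Rpl10l, both known from male germ cells, had means of 0.56, 0.20 and 0. Rpl26, Rps27, Rpl34 and Rpl30 encode core proteins of every ribosome, yet Rpl26 was listed at 0 in all 8 libraries and Rps27, Rpl34 and Rpl30 averaged 2.95, 4.34 and 4.85. Rps27 shared 98.6% of its windows with other genes and Rpl26 71.3%, whereas Rpl34 and Rpl30 shared 50.6% and 47.8%, less than many genes that were well counted. These values are no measure of how much of these 4 messages the tissue holds. Just outside the threshold stood Rpl30 with a mean of 4.85, and just inside it Rps27l with 16.6. The symbol pattern itself also missed ribosomal genes with other names, of which Rpsa (mean 1058), Rps3a1 (597), Rack1 (277) and Fau (224) were well counted.

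Depth differed between the libraries. Reads in genes numbered 6537749 to 9863728 in 6 libraries, against 1484318 in KD.251 and 272456 in KD.255, so the median ribosomal protein gene had 422 to 858 reads in the 6, 148 in KD.251 and 20 in KD.255. Single reads were worth 15.6 normalized counts in KD.255, where 13 of the 73 genes had fewer than 10 reads and Rps19 and Rps4l had none, which allows up to 46.7 normalized counts (3 reads). Such floors cover counting error only. Acss2, the targeted gene, had 25.6 and 57.7 normalized counts in trained and 25.0 and 15.6 in untrained knockdown libraries, against 87.4 and 67.5 in trained and 58.2 and 82.0 in untrained control libraries (log2 difference -1.37, SE 0.33, limma adjusted p = 0.333). All 8 markers of choroid plexus were detected at a summed level of 71600 in eGFP.250 and 18560 in eGFP.254, against 711 to 3508 in the other 6 libraries. All 8 microglial markers summed to 1307, 891, 1520 and 1213 in KD.249, KD.251, KD.253 and KD.255, against 684, 686, 890 and 783 in eGFP.250, eGFP.266, eGFP.254 and eGFP.268. The 10 neuronal markers were present in all libraries, with sums from 47670 in KD.249 to 69940 in eGFP.268. What these cell types contribute to the ribosomal values was not tested.

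Together, ribosomal protein genes took between 0.752% and 0.918% of the reads in genes. The share was 0.918% in KD.249 and 0.911% in KD.251 (trained knockdown), 0.752% in KD.253 and 0.856% in KD.255 (untrained knockdown), 0.905% in eGFP.250 and 0.880% in eGFP.266 (trained control), and 0.870% in eGFP.254 and 0.857% in eGFP.268 (untrained control). The 4 trained libraries lay above the 4 untrained ones, by as little as 0.880% in eGFP.266 against 0.870% in eGFP.254, and the knockdown and control libraries overlapped. The lowest share by far was that of KD.253, where genes of the large subunit took 0.555% (0.629% to 0.680% elsewhere) and genes of the small subunit 0.197% (0.206% to 0.250% elsewhere). Without the 100 genes of highest mean in the whole table, of which 1 was a ribosomal protein gene, the trained shares were 0.948%, 0.992%, 0.990% and 0.934% and the untrained ones 0.785%, 0.894%, 0.910% and 0.929%.

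No ribosomal protein gene passed the test for Acss2 knockdown averaged over trained and untrained mice. By limma on log2(normalized count + 1) over all 12681 genes of sufficient mean, 0 of the 73 passed an adjusted p of 0.05, against 0.103% of all genes tested, and 0 had an unadjusted p under 0.05. The recovered reads gave 0 by edgeR (0.962% of all genes) and 0 by DESeq2 (1.54%). The median log2 difference was -0.06, with 24 genes higher and 49 lower, and the median of all tested genes was -0.03. In none of the 73 did the 4 knockdown libraries separate from the 4 control libraries, against 2.28% of all genes that were higher without overlap and 1.98% that were lower.

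The extreme differences with knockdown rested on KD.255. Rps19, which is mutated in Diamond-Blackfan anaemia in humans, had 54.3, 86.5, 39.5 and 0 normalized counts in KD.249, KD.251, KD.253 and KD.255, against 74.5, 41.6, 52.9 and 71.0 in eGFP.250, eGFP.266, eGFP.254 and eGFP.268. Without the 0, which is 0 of 272456 reads, the knockdown libraries lay between 39.5 and 86.5, across the control range. The limma difference was -1.50 (SE 1.074, adjusted p = 0.873), and edgeR, which works on the reads, gave -0.25. Rps4l behaved alike, with 0 in KD.255, a limma difference of -1.40 (SE 1.04, adjusted p = 0.873) and an edgeR difference of -0.19.

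Among the others, Rps18 was the highest with knockdown at a log2 difference of 0.67 (SE 0.54, adjusted p = 0.873). Its normalized counts were 28.1, 75.0, 27.0 and 140.0 in KD.249, KD.251, KD.253 and KD.255, against 48.6, 21.0, 24.4 and 47.5 in eGFP.250, eGFP.266, eGFP.254 and eGFP.268, so the groups overlapped and both shallow libraries were the high ones. Without both shallow libraries its difference was -0.25. Rps29, a small zinc-binding protein of the small subunit, averaged 127 ± 44.0 with the hairpin and 94.2 ± 19.7 without it (SD over 4 libraries each), a difference of 0.38 (SE 0.27), and Rpl15 averaged 347 ± 174 and 293 ± 129. Rps29 and Rpl15 also turned to negative differences, -0.06 and -0.46, without both shallow libraries. At the other end, Rpl36a averaged 647 ± 332 in knockdown and 860.0 ± 351 in control libraries, Rpl37a 42.7 ± 8.16 and 57.3 ± 13.4, and Rps15a 206 ± 69.6 and 253.1 ± 39.2, with limma adjusted p = 0.873 for each.

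Rps6, the substrate of the S6 kinases, had 533, 577, 499 and 404 normalized counts in KD.249, KD.251, KD.253 and KD.255, against 519, 534, 546 and 491 in eGFP.250, eGFP.266, eGFP.254 and eGFP.268. All but KD.255 lay between 491 and 577. Rpl5, which with Rpl11 and 5S ribosomal RNA binds Mdm2 when ribosome assembly is disturbed, ranged from 649.8 to 1088 in knockdown and from 739 to 1069 in control libraries, and Rpl11 from 295 to 525 and from 283 to 591. The stalk protein Rplp0 ranged from 193 to 351 in knockdown and from 213 to 313 in control libraries. Rpl3 at the peptidyl transferase centre ranged from 949 to 1483 and from 1109 to 1581, and Rps23 at the decoding centre from 432 to 778 and from 495 to 729. In each of these the groups overlapped. Rps27a, made as a fusion with ubiquitin, ranged from 285 to 542 in knockdown and from 349 to 404 in control libraries, and Rps26, at the exit of the messenger RNA channel, from 258 to 490.4 and from 312 to 336. Rpl10, which joins the subunit last, ranged from 151 to 291 and from 155 to 250.8, Rpl23a at the end of the exit tunnel from 529 to 875 and from 500.0 to 952, and Rpl41, the smallest ribosomal protein, from 177 to 228 and from 171 to 264. The ranges of the vectors overlapped in all 5.

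Split by training, the knockdown comparisons had opposite medians. In untrained mice the median was -0.19 (all tested genes -0.05), with 18 higher and 55 lower. In trained mice it was 0.06 (all tested genes -0.00), with 44 higher and 29 lower. None of the 73 was called in either, by limma (0% of all genes in untrained and 0.00789% in trained mice), edgeR (0.181% and 0.0315%) or DESeq2 (0.434% and 0.26%). With unadjusted p under 0.05, limma gave 3 in untrained mice (4.11%, against 4.50% of all genes) and 0 in trained mice (2.36% of all genes). In untrained mice both knockdown libraries were below both control libraries in 21 genes (28.8%, against 16.8% of all genes) and above them in 1, Rps27l (14.4% of all genes). In trained mice both were above in 5 (14.4% of all genes) and below in 4 (14.8% of all genes). Without KD.253 the median in untrained mice was -0.09, and without KD.255 it was -0.26. The median in trained mice ranged from -0.05 to 0.12 with 1 library left out in turn, so its sign did not hold.

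In untrained mice the lowest 3 were Rps19 at -3.29 (SE 1.33), Rps4l at -3.02 (SE 1.33) and Rpl36a at -0.83 (SE 0.49), and the highest 3 were Rps18 at 0.84 (SE 0.80), Rps27l at 0.61 (SE 0.64) and Rps14 at 0.36 (SE 0.50). Rps19 and Rps4l were called only when KD.253 was left out, which leaves the 0 of KD.255 as the lone untrained knockdown value and assumes that it varies like the other groups. Rps27l had 19.8 and 15.6 normalized counts in KD.253 and KD.255, against 12.8 and 9.8 in eGFP.254 and eGFP.268, and the 15.6 is 1 read. In trained mice the lowest 3 were Rps2 at -0.54 (SE 0.64), Rplp1 at -0.30 (SE 0.27) and Rpl23 at -0.28 (SE 0.22). The highest 3 there were Rps29 at 0.52 (SE 0.40), Rps18 at 0.51 (SE 0.80) and Rpl10a at 0.37 (SE 0.51). The adjusted p by limma was at least 0.816 for all 73 in untrained and 1 in trained mice.

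Training likewise left no ribosomal protein gene past the threshold. Trained against untrained mice of both vectors gave a median log2 difference of 0.14, with 53 genes higher and 20 lower, beside 0.03 for all tested genes, of which 55.1% were higher. Of the 73, 0 were called by limma (0% of all genes), 0 by edgeR (0% of all genes) and 0 by DESeq2 (0.0631% of all genes). Unadjusted, 4 had p under 0.05 by limma (5.48%, against 4.86% of all genes), 8 by edgeR (10.96%, against 6.92%) and 7 by DESeq2 (9.59%, against 6.14%). The median was 0.21 for genes of the small and 0.12 for genes of the large subunit. All 8 oligodendrocyte markers had a positive training difference too (median 0.56, 0 called by limma, 5 with an unadjusted p under 0.05), with sums of 16230, 26600, 19400 and 22450 in KD.249, KD.251, eGFP.250 and eGFP.266, against 15880, 17510, 14620 and 10410 in KD.253, KD.255, eGFP.254 and eGFP.268. All 8 choroid plexus markers were positive as well (median 0.92, 0 with an unadjusted limma p under 0.05). Of 8 microglial markers 7 were negative (median -0.29, 2 with an unadjusted limma p under 0.05). Neuronal, astrocyte and endothelial markers had medians of -0.08, -0.14 and -0.18. The part of these cell types in the ribosomal medians was not tested. With 1 library left out in turn, the median over the 73 ranged from 0.08 to 0.20.

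Rpl7, Rpl22 and Rpl35, all of the large subunit, were higher in all 4 trained than in all 4 untrained libraries (3 of 73, against 1.65% of all genes), and Rpl32 was lower in all 4 (1 of 73, against 1.62%). Rpl22 had 564, 424, 426 and 454 normalized counts in KD.249, KD.251, eGFP.250 and eGFP.266, against 417, 358, 391 and 421 in KD.253, KD.255, eGFP.254 and eGFP.268. The separation is narrow, with 424 in KD.251 beside 421 in eGFP.268. Rpl7 had 773, 709.6, 719 and 760 in the same trained libraries, against 647, 638, 659 and 649 in the untrained ones. Rpl32 had 362, 312, 372 and 298 in trained libraries, against 438, 435, 482 and 375 in untrained ones (difference -0.36, SE 0.14, adjusted p = 0.873). Rpl7 varied the least of the 73 within groups, with a residual SD of 0.05 on the log2 scale.

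Rplp2, a stalk partner of Rplp1, differed by 0.60 with training (SE 0.23, limma adjusted p = 0.873). It had 625, 303, 408 and 559 normalized counts in KD.249, KD.251, eGFP.250 and eGFP.266, against 288, 218, 364 and 358 in KD.253, KD.255, eGFP.254 and eGFP.268, and KD.251 lay within the untrained range. Rps4x, the X-linked S4 protein, averaged 452 ± 138 in trained and 342 ± 254.7 in untrained libraries (difference 0.59, SE 0.40), and its highest value, 723, was that of the untrained control library eGFP.268. Rps19 and Rps4l had differences of 1.66 (SE 1.074) and 1.46 (SE 1.04) through the 0 of the untrained KD.255. On the negative side, Rps13 averaged 429 ± 273 in trained and 524 ± 67.2 in untrained libraries (-0.53, SE 0.41), Rps28 176 ± 79.9 and 215 ± 51.1 (-0.38, SE 0.32), Rpl11 350.3 ± 45.4 and 449 ± 134 (-0.32, SE 0.22), and Rps15 442 ± 5.06 and 554 ± 125 (-0.30, SE 0.16).

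Within a vector, the training difference had a median of 0.26 in knockdown mice (54 higher, 19 lower; all tested genes 0.04) and of 0.03 in control mice (40 higher, 33 lower; all tested genes 0.01). No member was called by limma (0% of all genes in both), edgeR (0% in both) or DESeq2 (0% in knockdown and 0.0315% in control mice), and 7 (9.59%, against 4.48% of all genes) and 0 (against 1.43% of all genes) had an unadjusted p under 0.05 by limma. In knockdown mice both trained libraries were above both untrained ones in 21 genes (28.8%, against 16.4% of all genes) and below in 1, Rpl32 (14% of all genes). This comparison shares KD.253 and KD.255 with the knockdown comparison in untrained mice, so the count of 21 in each is not a second observation. In control mice 11 were above (14.5% of all genes) and 4 below (14.3% of all genes). The 3 highest in knockdown mice were Rps19 at 3.45 (SE 1.33), Rps4l at 3.07 (SE 1.33) and Rps4x at 1.12 (SE 0.53), and the 3 lowest were Rps2 at -0.45 (SE 0.64), Rps18 at -0.42 (SE 0.80) and Rps13 at -0.38 (SE 0.60). In control mice Rps27l at 0.74 (SE 0.64), Rps12 at 0.60 (SE 0.39) and Rps14 at 0.59 (SE 0.50) were the highest, and Rps13 at -0.67 (SE 0.60), Rpl11 at -0.56 (SE 0.32) and Rps28 at -0.48 (SE 0.47) the lowest.

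The interaction, the training difference in knockdown mice minus that in control mice, was tested directly. None of the 73 was called by limma, edgeR or DESeq2 (0% of all genes each), and 0 had an unadjusted p under 0.05 by limma. The median was 0.26, with 57 genes above and 16 below 0, beside 0.03 for all tested genes, and it was 0.13 without KD.253. Rps19 at 3.59 (SE 1.88), Rps4l at 3.23 (SE 1.88) and Rps4x at 1.069 (SE 0.75) were the highest, and Rps27l at -0.81 (SE 0.91), Rps2 at -0.49 (SE 0.91) and Rpl13a at -0.49 (SE 0.46) the lowest, with limma adjusted p = 1 for each.

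**Figure D2:**
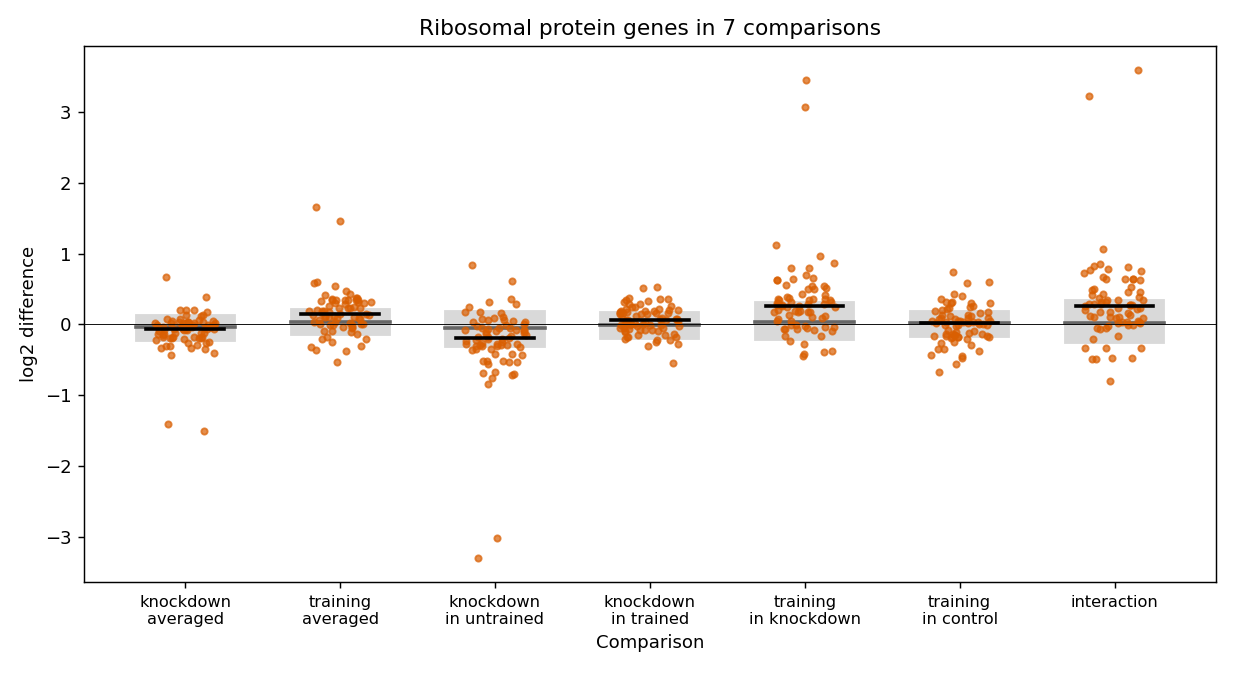
log2 difference of each of the 73 ribosomal protein genes (points) in the 7 comparisons (horizontal axis), with knockdown minus control and trained minus untrained. The black bar is their median and the grey box and grey bar the quartiles and median of all 12681 tested genes; the medians of the ribosomal genes lie between -0.19 and 0.26, and the points beyond 1.4 on either side are Rps19 and Rps4l.

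Ribosomal protein genes differed widely between the 2 libraries of the same group. Their median residual SD within groups was 0.39 on the log2 scale, against 0.31 for the 11736 other tested genes in the same range of means. For the 7219 of these with a transcript no longer than the longest of the 73 it was 0.34. It was as wide in related genes, at 0.39 for 76 mitochondrial ribosomal proteins and 0.38 for 71 genes of the respiratory chain and ATP synthase. Rps21, a small protein of the small subunit, had normalized counts of 125 in KD.249 and 525 in KD.251 (trained knockdown), 100.2 in KD.253 and 467 in KD.255 (untrained knockdown), 324 in eGFP.250 and 131 in eGFP.266 (trained control), and 110.5 in eGFP.254 and 399 in eGFP.268 (untrained control). So each of the 4 groups held one low library between 100.2 and 131 and one high library between 324 and 525. Rpl39, a protein of the exit tunnel, had 52.7 and 133, 58.7 and 93.3, 196 and 50.2, and 58.2 and 167 in the same order.

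Other genes ran the opposite way in the same libraries. Rps24 had 2485 and 1194 normalized counts in KD.249 and KD.251, 1567 and 1229 in KD.253 and KD.255, 1627 and 2495 in eGFP.250 and eGFP.266, and 2117 and 1332 in eGFP.254 and eGFP.268. Rpl12 had 887 and 591, 829 and 715, 570.3 and 842, and 986 and 569 in the same order. Rps24 and Rpl12 were high where Rps21 was low in all 4 groups. Rpl27, a protein of the large subunit, had 80.4 and 415, 92.3 and 248.8, 277 and 73.2, and 137 and 249.7, and sided with Rps21. The genes of these pairs and the direction in which the pairs were subtracted were chosen after their values were seen.

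**Figure D3:**
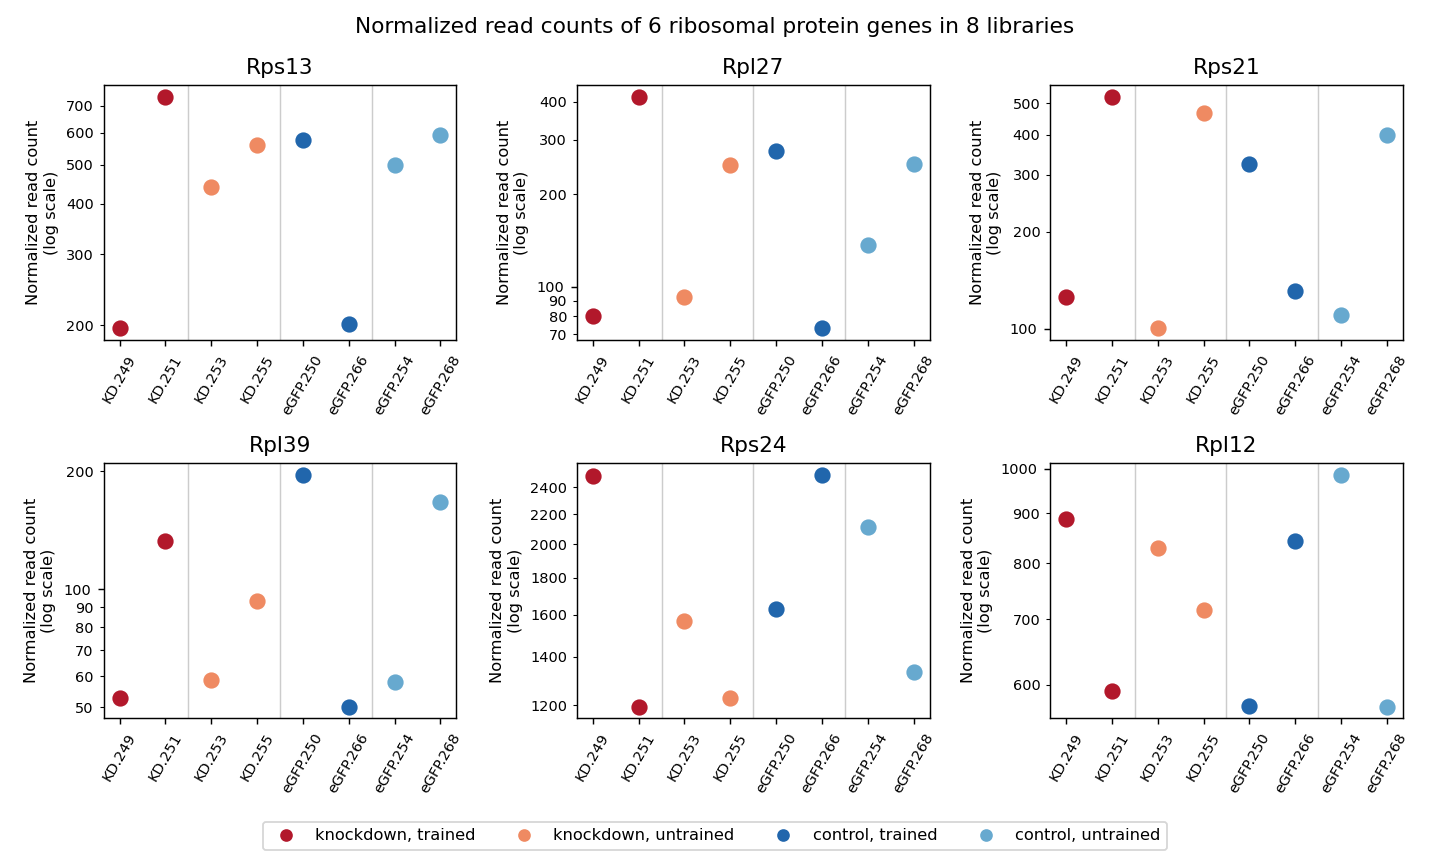
Normalized read counts (vertical log axes) of 6 ribosomal protein genes in each of the 8 libraries, coloured by group. Within each group one library has high Rps13, Rpl27, Rps21 and Rpl39 and low Rps24 and Rpl12; for Rps21 the low libraries lie between 100.2 and 131 and the high ones between 324 and 525.

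The groups share no library, so their within-group differences can be set side by side, here for the 3 groups that do not hold KD.255. Across the 73 genes, KD.251 minus KD.249 and eGFP.250 minus eGFP.266 had a Pearson correlation of 0.87 (Spearman 0.86). KD.251 minus KD.249 against eGFP.268 minus eGFP.254 gave 0.74 (Spearman 0.73), and eGFP.250 minus eGFP.266 against eGFP.268 minus eGFP.254 gave 0.75 (Spearman 0.73). For the 11736 other genes the same 3 Pearson correlations were 0.29, 0.33 and 0.03 (Spearman 0.38, 0.40 and 0.22). These are descriptions over genes that share the libraries and their depth. With KD.255 minus KD.253 the Pearson correlations were 0.19 to 0.36 and the Spearman correlations 0.33 to 0.53. For the other genes these were 0.02 to 0.22 and 0.10 to 0.32. Rps19 and Rps4l, with 0 reads in KD.255, differed by -5.34 and -5.32 in that pair. Pearson correlations with it were 0.43 to 0.62 for genes of the large subunit alone and 0.11 to 0.30 for those of the small subunit. Counting error alone gives that pair an SD of 0.49.

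**Figure D4:**
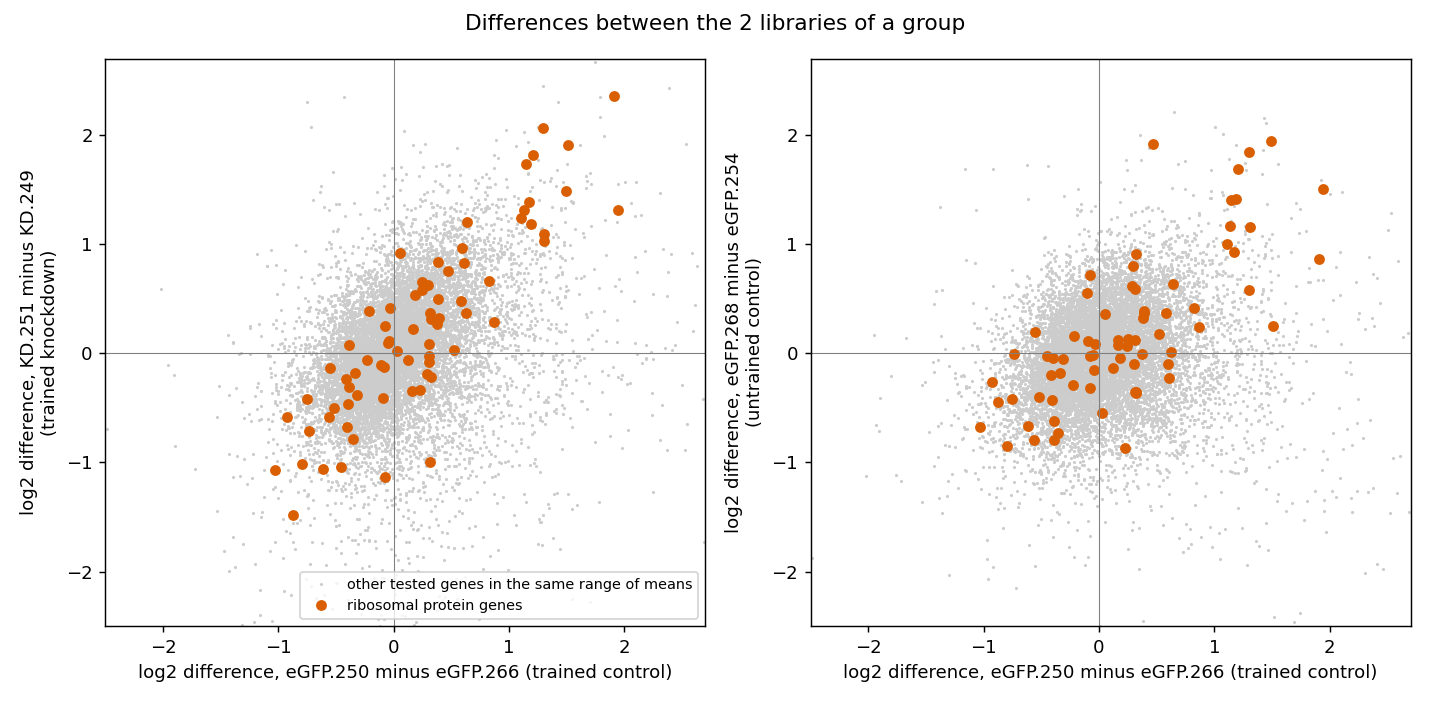
log2 difference between the 2 libraries of a group for each gene, with the trained control pair on the horizontal axis and the trained knockdown pair (left) or the untrained control pair (right) on the vertical axis. Orange points are the 73 ribosomal protein genes, which lie along the rising diagonal, and grey points are 11736 other tested genes in the same range of means (a few outside the axes are not drawn).

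With the pairs subtracted as above, 9 of the 73 genes were above 1 on the log2 scale in all 3 (12.3%, against 0.188% of the other genes, with only this side counted in both). Among them were Rpl6, Rpl15, Rpl35a, Rpl36a, Rpl39, Rps2 and Rps21, so both subunits were represented. Another 4, Rpl10a, Rpl12 and Rps24 among them, were below -0.5 in all 3 (5.48%, against 1.35%). In 49 of the 73 the sign was the same in all 3 (67.1%, against 43.8%). The same 2 directions were present among genes of the small subunit alone (Pearson 0.86, 0.69 and 0.75, n = 30) and of the large subunit alone (0.88, 0.78 and 0.75, n = 43). Rps6, Rpl7, Rpl17 and Rpl21, among others, had mean differences over the 3 pairs between -0.08 and 0.01. Rpl7 was slightly below 0 in all 3 (-0.12, -0.08 and -0.02). Rps6, Rpl17 and Rpl21 changed sign between pairs, Rpl17 with 0.08, 0.31 and -0.36 in trained knockdown, trained control and untrained control mice.

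As whole profiles, the most alike pairs of libraries joined different groups. Over the 73 genes the SD of the log2 differences was 0.17 between KD.249 and eGFP.266, where counting error alone gives 0.11, and 0.18 between KD.253 and eGFP.254, where it gives 0.13. It was 0.25 between eGFP.250 and eGFP.268 and 0.27 between KD.251 and eGFP.268, where counting error gives 0.10 and 0.19. Within groups it was 0.83 in trained knockdown, 1.14 in untrained knockdown, 0.68 in trained control and 0.68 in untrained control mice. Counting error gives 0.19, 0.49, 0.11 and 0.11 in these. The widest was 1.21, between KD.249 and KD.255 of different groups. The SDs with KD.255 include Rps19 and Rps4l, which had 0 reads there. Over genes of the large subunit alone the within-group SDs were 0.78, 0.63, 0.66 and 0.60 in the same order, and 0.69 between KD.249 and KD.255. No library had its group partner as its closest library over these genes, and over the other 11736 genes 7 of 8 libraries were also closest to a library of another group. Between KD.249 and eGFP.266, 0 of the 73 genes differed by more than 0.5, against 37 of 73 between KD.249 and KD.251, and among the other 11736 genes 1382 and 3786 did.

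**Figure D5:**
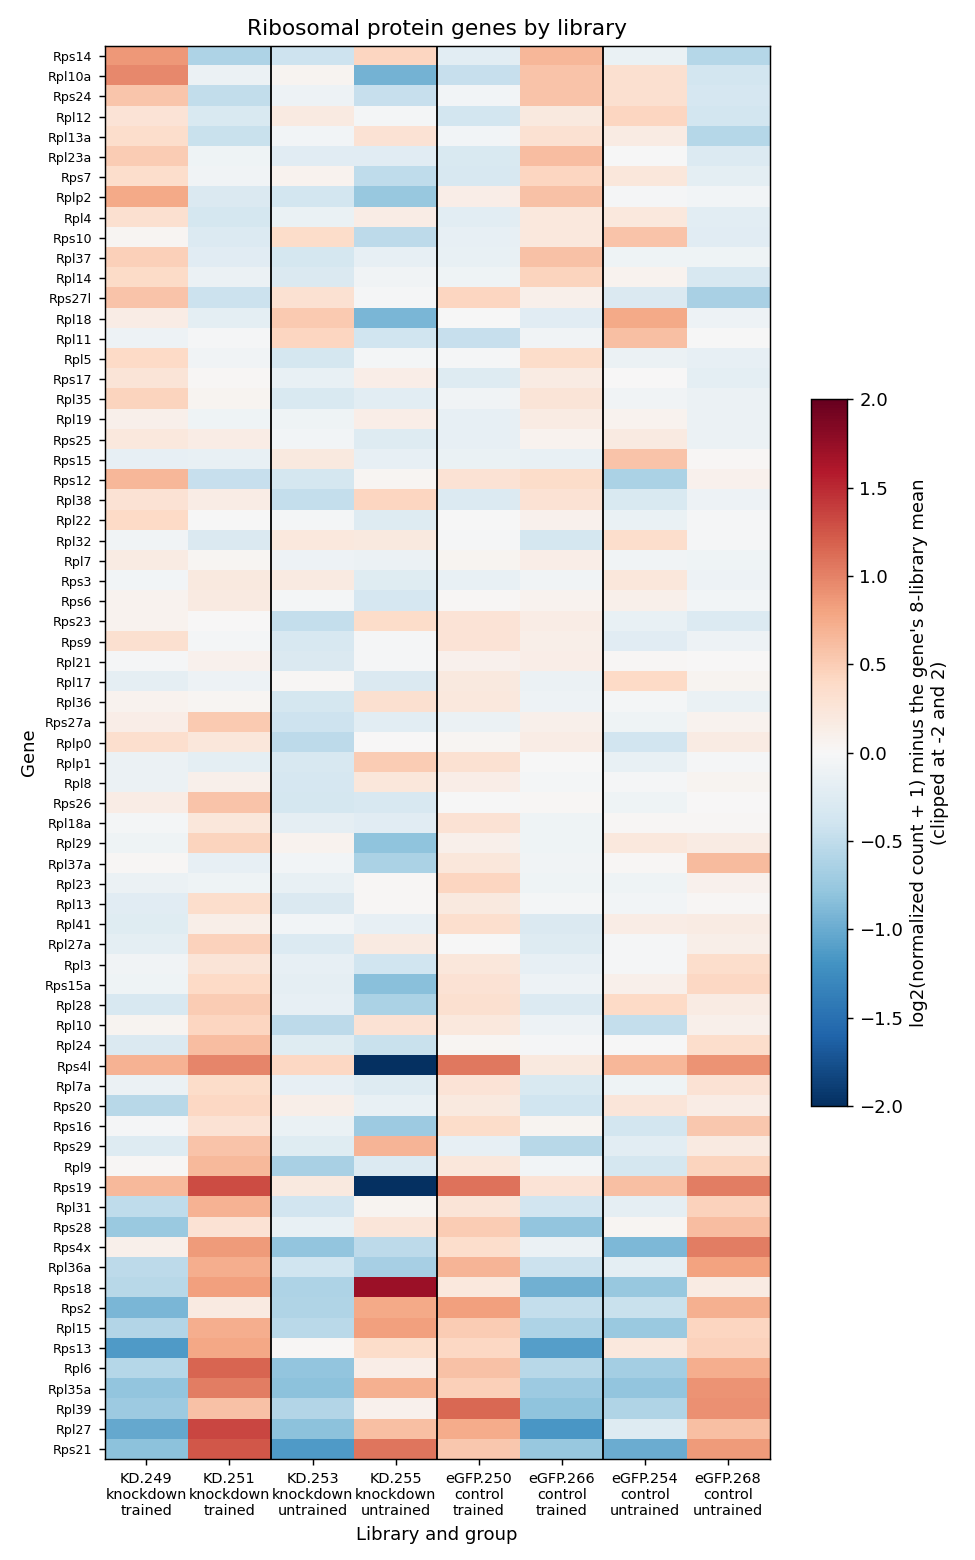
log2(normalized count + 1) of 70 of the 73 ribosomal protein genes (rows) in each library (columns, by group), minus the mean of the gene over the 8 libraries, with colours clipped at -2 and 2. Rows are ordered by the mean within-group difference of the 3 pairs without KD.255, from Rps14 at -0.93 to Rps21 at 1.73. The top and bottom rows alternate in colour between the 2 libraries of each of these pairs. Between KD.253 and KD.255 some of these rows run the other way, such as Rps14 at -0.41 and 0.42.

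Several measures of the libraries moved the same way. Percentages here are of all entries of the deposited table, genes and summary entries together. Reads aligned to more than 1 place came to 12.6 in KD.251 and 11.7 in KD.249, 12.5 in KD.255 and 10.6 in KD.253, 13.8 in eGFP.250 and 12.1 in eGFP.266, and 12.2 in eGFP.268 and 11.2 in eGFP.254. Reads with no counted feature came to 18.7 and 17.9, 19.3 and 17.2, 18.5 and 16.4, and 20.3 and 16.4 in the same order. Both were higher in the same library of each of the 4 groups, and their part in the differences was not tested. The library with high Rps21 had fewer reads in genes than its partner in 3 of the 4 groups, and more in untrained control mice (9863728 in eGFP.268 and 7552478 in eGFP.254). Its summed choroid plexus markers were higher in 3 of the 4 groups (3508 in KD.251 and 1360 in KD.249, 1633 in KD.255 and 1301 in KD.253, 71600 in eGFP.250 and 1980 in eGFP.266) and lower in untrained control mice (711 in eGFP.268 and 18560 in eGFP.254). The part of either was not tested.

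Length, GC content and shared sequence of the genes had weak correlations with the within-group differences. Over the 73 genes, the Pearson correlation of the difference eGFP.250 minus eGFP.266 was -0.12 with transcript length, -0.16 with coding length (n = 72), 0.07 with GC content and -0.07 with the share of windows found in other genes. The mean level per kb had -0.32 with that difference, -0.17 with KD.251 minus KD.249 and -0.22 with eGFP.268 minus eGFP.254. Higher genes thus tended weakly towards the negative side. The 32 genes with a pyrimidine run at a start site had a median mean difference over the 3 pairs of -0.03 (-0.93 to 1.73) and the 21 without one a median of 0.30 (-0.50 to 1.71). Both sets held negative and positive differences, but the lowest value without a run was -0.50, against -0.93 with one. Rps24 and Rps21, on opposite sides, both had a run. The part of the run in the differences was not tested.

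The same libraries stood apart in 2 other gene lists. For 76 mitochondrial ribosomal proteins the 3 Pearson correlations between the pairs were 0.64, 0.54 and 0.60, and for 71 genes of the respiratory chain and ATP synthase 0.71, 0.74 and 0.55. In both lists, too, KD.249 was closest to eGFP.266, KD.253 to eGFP.254 and eGFP.250 to eGFP.268. Differences above 1 in all 3 pairs were rarer there, with 0 of 76 and 1 of 71. The sign was the same in all 3 in 59.2% and 69.0%, against 67.1% of the 73 ribosomal protein genes. Differences above 0.5 in all 3 were found in 3.95% and 14.1% (17.8% of the 73), and differences below -0.5 in 9.21% and 4.2% (5.48% of the 73).

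Genes that make or regulate ribosomes gave no limma call with knockdown or training. In knockdown against control mice, limma called 0 of 20 TOP-containing translation factor genes (median -0.09, 5 higher and 15 lower), 0 of 38 ribosome biogenesis genes (0.01, 21 and 17), 0 of 20 regulators of ribosomal protein genes (0.04, 12 and 8), 0 of 8 ribosomal genes outside the symbol pattern (0.04, 6 and 2), 0 of 76 mitochondrial ribosomal proteins (-0.14, 25 and 51) and 0 of 71 respiratory genes (-0.21, 6 and 65). Unadjusted, 1, 1, 2, 0, 1 and 7 of them had a p under 0.05, against 5.59% of all genes. Training called 0 in each of the 6 lists by limma (2, 0, 1, 0, 1 and 8 unadjusted, against 4.86% of all genes), with medians of 0.08, 0.11, -0.04, 0.05, 0.08 and 0.07 in the same order. Pabpc1, the poly(A)-binding protein and a TOP message, had 1897, 1598, 1862 and 1555 normalized counts in KD.249, KD.251, KD.253 and KD.255, against 1231, 1228, 1307 and 1326 in eGFP.250, eGFP.266, eGFP.254 and eGFP.268. All 4 knockdown libraries lay above all 4 control libraries, as in 2.28% of all genes, with a log2 difference of 0.44 (SE 0.12), and the gene did not pass by limma (adjusted p = 0.455) or edgeR (adjusted p = 0.2) but did by DESeq2 (adjusted p = 0.0168), the only call of either tool in the 6 lists. Eif3f, a subunit of an initiation factor, had a difference of -0.43 (SE 0.29). Among the regulators, Myc at 0.66 (SE 0.35) and Sp1 at 0.44 (SE 0.19) were the highest and Rheb, the activator of mTOR, the lowest at -0.46 (SE 0.37), with limma adjusted p = 0.873 for each. Rheb had 98.3, 216, 83.7 and 93.3 in KD.249, KD.251, KD.253 and KD.255, against 242, 111, 93.6 and 236 in eGFP.250, eGFP.266, eGFP.254 and eGFP.268, and was high in KD.251, eGFP.250 and eGFP.268, as Rps21 was.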

How the data were processed

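Poly(A)+ RNA of dorsal hippocampus was sequenced in 8 libraries, 2 for each combination of vector and training. Per the submitters' processing notes, reads were handled with bcl2fastq 02.14.01.07, STAR 2.3.0, HTSeq 0.6.1, DESeq and bedtools on build mm10. Annotation and strand setting were not stated in the sources used. The deposited signal is a normalized read count, whole reads divided by 1 size factor per library: all values (100%) came out whole at a relative tolerance of 1e-06, and these recovered reads gave the depths. The table has 24503 entries, 24498 genes and 5 summary entries. These 5 stayed out of library sizes and tests. Among them were reads with no feature (16.4% to 20.3% of all entries, genes and summary entries together) and reads not uniquely aligned (10.6% to 13.8%).

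Differences were fitted with limma 3.58.1 (R 4.3.3) on log2(normalized count + 1), so that folds of low genes are understated, over 12681 genes with a mean of at least 10, with Benjamini-Hochberg adjustment over all of them. Averaged comparisons used vector and training as terms, and the others the means of the 4 groups. edgeR 4.0.16 (quasi-likelihood) and DESeq2 1.42.0 on the recovered reads, other scalings, pseudocounts and filters, and leaving out libraries were alternatives. Fits were tested on simulated data. Coordinates and lengths come from GENCODE on GRCm38, and windows of 50 bases were compared between its transcripts.

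The members, lists and tests were chosen with earlier results of these data known. Genes named were a panel by role, the 5 highest and 5 lowest differences in the averaged comparisons, 3 and 3 in the others, the 5 highest and 5 lowest per kb, the genes beside the threshold and, of other lists, the 2 highest and 2 lowest; the genes of the within-group pairs, of the separated groups and of the shared windows were named after their values were seen. A few genes are not reported here; they stayed in the fits and counts.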

Additional observations from a re-analysis of the deposited data

Results flagged for a closer look

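The share of reads in genes taken by the 73 ribosomal protein genes was 0.752% in the untrained knockdown library KD.253, far below the other 3 untrained libraries, KD.255 at 0.856%, eGFP.254 at 0.870% and eGFP.268 at 0.857%. Its gap to the nearest of them was large for a group of 4, a rule by which chance marks about 1 group in 20. KD.253 had 6537749 reads in genes, so counting error is small there. The median ribosomal protein gene lay 0.22 below its mean over the 8 libraries on the log2 scale in KD.253, and 17 of the 73 lay above their mean.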

How the results depend on the processing

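No paired analysis was possible because the columns of the table carry library numbers and not the replicate numbers of the labels. Over 19 other settings, the number of ribosomal protein genes called stayed at 0 in both averaged comparisons; without KD.253 it was 2 (Rps19 and Rps4l, from 0 reads in KD.255) for knockdown in untrained mice, training in knockdown mice and the interaction (range 0 to 2 with 1 library left out). With 1 library left out the medians ranged from -0.122 to -0.0098 for knockdown and 0.0767 to 0.202 for training averaged, from -0.26 to -0.0856 for knockdown in untrained, -0.0514 to 0.123 for knockdown in trained, -0.0962 to 0.112 for training in control, 0.17 to 0.333 for training in knockdown mice and 0.135 to 0.344 for the interaction. The 6 libraries with the lower numbers alone gave -0.0514, 0.15 and 0.119 for knockdown in trained, training in control mice and the interaction. The shares without the 100 highest genes, given above, were 0.948%, 0.992%, 0.990%, 0.934%, 0.910% and 0.929% in KD.249, KD.251, eGFP.250, eGFP.266, eGFP.254 and eGFP.268. TMM and recomputed DESeq2 size factors shifted no library's median by over 0.1.

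Single genes changed sign in 38 cases. With 1 library left out, knockdown differences ranged from -0.0829 to 0.48 for Rpl15 (averaged), from -0.0548 to 0.78 for Rps14 and -0.325 to 2.01 for Rps18 (untrained), and from -1.2 to 0.108 for Rps2, -0.169 to 0.90 for Rpl10a and -0.182 to 1.2 for Rps18 (trained). Training differences ranged from -1.13 to 0.24 for Rps2, -1.58 to 0.75 for Rps18 and -1.34 to 0.57 for Rps13 in knockdown mice and from -1.43 to 0.0844 for Rps13 and -1.13 to 0.171 for Rps28 in control mice, and the interaction from -1.18 to 0.192 for Rps2. Without both shallow libraries, knockdown gave -0.46 for Rpl15, -0.057 for Rps29 and -0.25 for Rps18 (averaged), -0.0548 for Rps14 and -0.325 for Rps18 (untrained) and -0.182 for Rps18 (trained); training gave -0.0122 for Rps4l (averaged) and 0.0569 for Rps18 (knockdown mice); the interaction of Rpl13a was 0.077. With the lower numbers alone, knockdown in trained mice gave -0.0757 for Rps18, training in control mice 0.21 for Rps13, 0.46 for Rps28 and -0.0718 for Rps14, and the interaction 0.0561 for Rpl13a and -0.125 for Rps4x. The cause was not tested. Depth limits KD.255, where the median ribosomal gene had 20 reads.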
